A study of Homo sapiens with 24 samples.

Results

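Interferon-stimulated genes and the sensors and factors that act above them were followed in 3 estrogen receptor-positive (ER+) human breast cancer lines, ZR-75-30, HCC1500 and MDA-MB-175, grown in low or high glucose. The members were the table rows whose symbol is among 49 listed symbols: type I interferon targets, sensors of RNA and DNA, and STAT and IRF factors. Of these, 48 had a row among the 18889 genes listed, and CXCL10 was not analysed here. Cells of each line were kept for 48 hours with 5 mM glucose (low glucose, the control) or 25 mM glucose (high glucose, modelling hyperglycemia), with 4 replicates in each of the 6 groups and 24 RNA-Seq samples in all. Per the study's methods, the lines were conditioned in low glucose medium and treated without serum. All samples share this, and a mannitol control for osmolarity is not stated for them. Each line is a single established line, and whether the replicates were separate cultures is not stated beyond the label, so p-values measure only the spread between these samples, which may be technical.

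Cells sense foreign or misplaced nucleic acid through cytosolic receptors, among them the RNA helicases DDX58 (RIG-I) and IFIH1 (MDA5) and, for DNA, a pathway that runs through the adaptor TMEM173 (STING). Signals from these sensors induce interferons, which act through their receptors on STAT and IRF factors, STAT2 and IRF9 among them. These factors bind the interferon-stimulated response element (ISRE) in the promoters of many target genes. The targets include enzymes that degrade or block viral RNA, membrane proteins that hold virus back and regulators that end the response. Many are also expressed in tumor cells without infection.

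Values are normalized read counts as deposited: whole reads divided by a factor for each sample. Recovered reads ran from 9140024 to 17998819 per sample, and 3 reads, taken as the floor, equalled 0.95 to 2.29. In HCC1500 the low glucose samples had more reads (13190982 to 17998819) than the high glucose samples (9423472 to 12140912). HCC1500 high glucose replicate 3 (HG3) stood apart: its mean correlation across genes with its group was 0.944, against at least 0.990 in the groups other than HCC1500 high glucose. The main counts in HCC1500 are therefore given with and without it, and so are the changes of some members. Other HCC1500 changes include HG3. Among these, HG3 was below the rest of its group for DDX58, STAT2, PARP9, PARP14 and DTX3L, and above it for genes such as OAS1 and IFIT1. The 17 members called in HCC1500 were also called, in the same direction, without HG3. TXNIP, a gene induced by glucose, rose in every line, by 1.02 ± 0.07 (log2 ± SE) in HCC1500, 0.76 ± 0.04 in ZR-75-30 and 0.39 ± 0.04 in MDA-MB-175. ESR1 was expressed in all 3 lines, with means at low glucose of 3178 ± 36.06, 617.9 ± 20.34 and 334.8 ± 3.59 (SD, n = 4) in the same order. Of 5 epithelial markers, EPCAM, KRT8, KRT18 and KRT19 were at 1156 to 24675 over all samples. CDH1 was at 48.99 to 61.99 in ZR-75-30, against at least 5447 in every sample of the other lines, and was the single epithelial marker called lower there than in HCC1500, where KRT8 and KRT18 were called lower than in ZR-75-30. The luminal marker PGR was at 0.00 to 4.25 in MDA-MB-175 and ZR-75-30. Of 4 luminal markers, 3 were called lower in MDA-MB-175 than in HCC1500 at low glucose (22.1% of all genes) and 0 were called against ZR-75-30. Of 4 fibroblast markers, 3 were called higher in MDA-MB-175 than in ZR-75-30 (22.9% of all genes). Against HCC1500, 2 were higher (20.6%) and 1 lower. Both endothelial markers with a row were called higher in MDA-MB-175 than in each other line. Of 6 leukocyte markers 2 had a row: CD14 rose in HCC1500 (both did without HG3) and CD68 in both other lines, with values of 0.00 to 26.73 and 0.67 to 43.86 over all samples. Their part in the results below was not tested.

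The promoters of 35 members were found in the RefSeq table (GRCh38.p14 sequence, 250 bases before to 50 after the start site). The ISRE core GAAANNGAA, searched on both strands, was in 24 of them (68.6%), against 8.29% of all 27305 promoters. The STAT site TTCNNNGAA, which can overlap an ISRE core, was in 9 of 35 (25.7%), against 7.88% of all. A match is a description of these letters and not a measured binding site. The sequences below show 170 bases before the start site of a sensor, a double-stranded RNA effector, a pair of IFIT genes and BST2, with the ISRE cores in capitals. Their positions were found by exact match in GRCh37: IFIH1 chr2:163175195-163175364, minus strand; OAS3 chr12:113376109-113376278, plus strand; IFIT1 chr10:91152210-91152379, plus strand; IFIT3 chr10:91087584-91087753, plus strand; BST2 chr19:17516440-17516609, minus strand.
IFIH1: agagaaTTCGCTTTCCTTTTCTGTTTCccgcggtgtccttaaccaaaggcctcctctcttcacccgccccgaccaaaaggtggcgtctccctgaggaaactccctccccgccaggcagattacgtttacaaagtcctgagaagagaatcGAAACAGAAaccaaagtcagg
OAS3: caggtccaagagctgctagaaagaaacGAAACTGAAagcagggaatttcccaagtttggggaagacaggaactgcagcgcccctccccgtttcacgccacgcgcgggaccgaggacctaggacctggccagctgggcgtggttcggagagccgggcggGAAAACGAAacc
IFIT1: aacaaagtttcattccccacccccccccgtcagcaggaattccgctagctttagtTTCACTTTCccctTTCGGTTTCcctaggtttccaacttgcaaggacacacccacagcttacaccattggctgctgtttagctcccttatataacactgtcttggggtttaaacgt
IFIT3: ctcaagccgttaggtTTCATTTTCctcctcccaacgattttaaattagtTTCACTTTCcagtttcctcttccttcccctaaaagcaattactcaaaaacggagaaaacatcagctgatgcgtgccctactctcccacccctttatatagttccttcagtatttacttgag
BST2: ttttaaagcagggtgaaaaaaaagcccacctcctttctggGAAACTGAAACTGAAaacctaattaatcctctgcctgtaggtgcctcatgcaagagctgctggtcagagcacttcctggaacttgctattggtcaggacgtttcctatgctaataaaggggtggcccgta
The IFIH1 window holds 4 cores and the other 4 windows hold 2 each, printed as 1 run of capitals where cores overlap. Of the genes printed, IFIH1, IFIT1 and IFIT3 rose in ZR-75-30 under high glucose, while OAS3 and BST2 did not pass the test there. BST2 had few reads in that line, and whether members with and without a match changed differently was not tested. OAS1, which changed in every line, had no match to the exact letters searched in its 300-base window. That window holds gaaacgaaac, a spacing that the search does not count, so the missing match does not show that OAS1 lacks an ISRE.

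To see how hyperglycemia affects these genes, high and low glucose samples were compared within each line with limma on log2(value + 1), with p-values adjusted over all genes tested. High glucose was followed by mostly higher values in ZR-75-30, mostly lower values in HCC1500 and changes in both directions in MDA-MB-175. In bulk RNA, fewer cells expressing a gene and less RNA per cell cannot be told apart. Changes are given as log2 ± SE with limma's adjusted p, and on the log2(value + 1) scale they understate those of low genes. In ZR-75-30, 45 members passed the filter on low values and 30 passed the test, against 46.0% of all genes. Of these 29 were higher and ISG20 lower, against 23.4% of all genes higher and 22.7% lower. In HCC1500, 17 of 47 tested members were called, against 20.5% of all genes. All 17 fell, against 13.0% of all genes lower and 7.46% higher. Without HG3, 31 members were called, against 58.5% of all genes: 30 fell and ISG20 rose, against 37.7% of all genes lower and 20.9% higher. The split of all genes depended on the scaling: with median-of-ratios factors 1723 genes were higher and 1800 lower in HCC1500, against 1221 and 2129 as deposited, while 1 member was higher and 15 lower. In MDA-MB-175, 19 of 46 tested members were called, against 25.7% of all genes. There 12 rose and 7 fell, against 11.9% of all genes higher and 13.7% lower. Members not tested were EPSTI1 in HCC1500, IFI27, IFI44L and XAF1 in ZR-75-30, and IFI35 and IFI44L in MDA-MB-175. The median log2 change over the tested members was 0.55 in ZR-75-30, -0.39 in HCC1500 (-0.45 without HG3) and 0.04 in MDA-MB-175, and the median over all genes tested was 0.01, -0.06 (-0.12 without HG3) and -0.02.

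**Figure D1:**
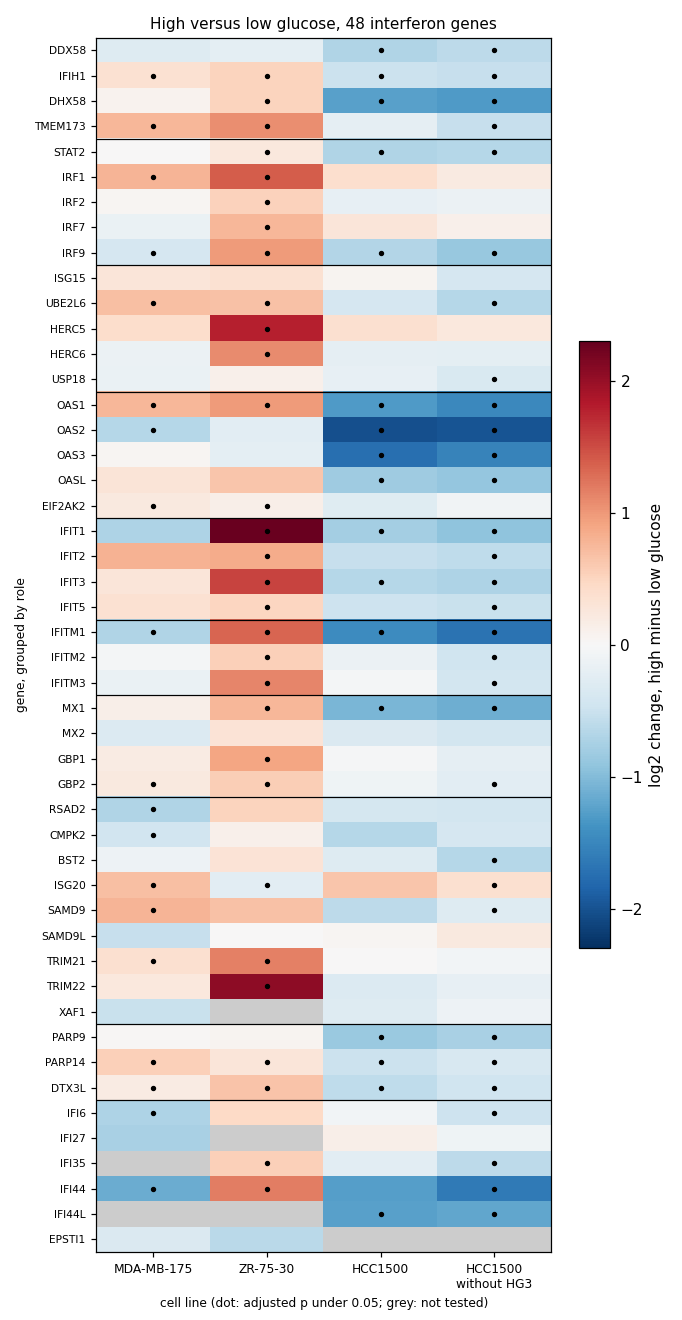
Log2 change at high against low glucose for the 48 members, by role from top to bottom, with a column for each line and a last column for HCC1500 without HG3. Color runs from blue (lower) to red (higher), dots mark adjusted p under 0.05 and grey marks genes not tested; the ZR-75-30 column holds 29 members called higher and the HCC1500 column 17 called lower.

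No member was called in the same direction in all 3 lines, and 8 were called in none: ISG15, USP18, MX2, BST2, SAMD9L, XAF1, IFI27 and EPSTI1. In all, 11 members rose in ZR-75-30 and fell in HCC1500: IFIH1, DHX58, STAT2, IRF9, OAS1, IFIT1, IFIT3, IFITM1, MX1, PARP14 and DTX3L. Without HG3 there were 20 such members. MDA-MB-175 and ZR-75-30 shared 10 members that rose, among them IRF1, TMEM173 and UBE2L6. IRF9, IFITM1 and IFI44 fell in MDA-MB-175 and rose in ZR-75-30. The share of all genes with each of these patterns over pairs of lines was not counted, so the counts above have no background. Taken singly, 23.4% of all genes were higher in ZR-75-30 and 13.0% lower in HCC1500 (37.7% without HG3). The shares in MDA-MB-175 were 11.9% higher and 13.7% lower. The glucose comparisons of the lines share no samples, but the F test below uses all of them again. The F test of whether the glucose response differed between lines was passed by 32 of 48 members, against 29.3% of all genes, and by 39 without HG3, against 48.6%. Its smallest p-values were those of OAS1 (adjusted p = 5.3e-08), HERC6 (2.4e-07) and OAS3 (4.7e-07).

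Among the sensors, 3 of 4 rose in ZR-75-30, against 23.4% of all genes higher. In HCC1500 3 of 4 fell, against 13.0% of all genes lower, and all 4 fell without HG3, against 37.7%. IFIH1, which binds long double-stranded RNA (chr2:163123584-163175194, GRCh37), was 38.52, 42.21, 43.84 and 45.27 at low and 51.59, 59.64, 57.39 and 49.42 at high glucose in MDA-MB-175. In ZR-75-30, IFIH1 was 58.17, 76.77, 74.62 and 67.95 at low and 93.74, 103.3, 97.32 and 102.8 at high glucose. In HCC1500, IFIH1 was 71.83, 64.16, 74.39 and 65.02 at low and 47.20, 51.74, 52.72 and 42.93 at high glucose. The conditions did not overlap in any line, and IFIH1 rose in ZR-75-30 (0.52 ± 0.10, adjusted p = 3.9e-04) and MDA-MB-175 (0.35 ± 0.11, adjusted p = 0.034) and fell in HCC1500 (-0.49 ± 0.12, adjusted p = 0.019). DHX58 (LGP2), a relative that lacks a signaling domain and tunes the other helicases, was 44.32, 50.61, 45.57 and 41.99 at low and 63.01, 70.21, 76.50 and 53.46 at high glucose in ZR-75-30. In HCC1500, DHX58 was 28.50, 26.36, 18.79 and 20.67 at low and 7.08, 8.46, 10.40 and 11.54 at high glucose. All high glucose samples lay above the low ones in ZR-75-30 (0.51 ± 0.13, adjusted p = 0.0032) and below them in HCC1500 (-1.25 ± 0.21, adjusted p = 0.004). In MDA-MB-175 DHX58 was 48.56, 48.24, 55.80 and 49.34 at low and 54.92, 55.10, 45.68 and 58.36 at high glucose, and the conditions overlapped (0.08 ± 0.11, adjusted p = 0.67).

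DDX58, which binds short RNA with a 5′ triphosphate, was 336.0, 331.9, 315.6 and 302.7 at low and 221.2, 219.4, 163.4 and 197.1 at high glucose in HCC1500, where it fell (-0.69 ± 0.11, adjusted p = 0.0035). In MDA-MB-175, DDX58 was 50.96, 54.94, 61.49 and 60.53 at low and 48.68, 51.69, 47.63 and 36.80 at high glucose. In ZR-75-30, DDX58 was 63.16, 63.12, 53.55 and 65.66 at low and 58.33, 57.38, 50.57 and 44.55 at high glucose. Conditions overlapped in both of these lines and neither change passed the test (-0.30 ± 0.13, adjusted p = 0.092 and -0.22 ± 0.12, adjusted p = 0.16). The annotation places 4471 exon bases of DDX58 in another gene model on the same strand, so its reads may be split. TMEM173 (STING; chr5:138855118-138862520) was 53.37, 56.95, 50.68 and 50.87 at low and 87.78, 98.27, 88.23 and 90.43 at high glucose in MDA-MB-175. In ZR-75-30, TMEM173 was 61.49, 59.14, 55.26 and 40.46 at low and 102.1, 126.9, 118.1 and 106.2 at high glucose. Every high glucose sample lay above every low glucose sample in both lines (0.77 ± 0.09, adjusted p = 1.3e-05 and 1.07 ± 0.13, adjusted p = 1.3e-06). In HCC1500, TMEM173 was 49.03, 47.96, 39.88 and 45.21 at low and 33.04, 29.35, 77.23 and 30.93 at high glucose. There the change did not pass the test with HG3 at 77.23 (-0.21 ± 0.29, adjusted p = 0.67) and was -0.53 ± 0.13, adjusted p = 0.0015 without it.

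All 5 STAT and IRF factors rose in ZR-75-30, against 23.4% of all genes higher. Of the 5, 2 fell in HCC1500 with and without HG3, against 13.0% and 37.7% of all genes lower. Without HG3 that count is near the share of all genes. IRF9, a DNA-binding factor that acts in a complex with STAT2, was 52.57, 50.92, 50.68 and 46.80 at low and 42.02, 35.78, 34.74 and 41.01 at high glucose in MDA-MB-175. In ZR-75-30, IRF9 was 11.08, 11.94, 13.67 and 6.11 at low and 21.87, 24.98, 14.02 and 26.73 at high glucose. In HCC1500, IRF9 was 148.6, 169.0, 142.3 and 140.0 at low and 84.95, 73.63, 144.8 and 85.39 at high glucose. It fell in MDA-MB-175 (-0.38 ± 0.12, adjusted p = 0.025), rose in ZR-75-30 (0.98 ± 0.26, adjusted p = 0.0048) and fell in HCC1500 (-0.67 ± 0.20, adjusted p = 0.047), with HG3 among the low glucose values and -0.87 ± 0.08, adjusted p = 5.3e-08 without it. Exons of IRF9 share 1544 bases with another gene model on the same strand. STAT2, its partner, was 233.2, 194.3, 224.3 and 219.2 at low and 206.4, 221.5, 225.6 and 223.4 at high glucose in MDA-MB-175. In ZR-75-30, STAT2 was 123.0, 149.6, 149.2 and 125.2 at low and 159.9, 165.4, 159.4 and 163.8 at high glucose. In HCC1500, STAT2 was 408.6, 455.5, 425.7 and 417.3 at low and 255.4, 269.6, 249.5 and 284.3 at high glucose. The HCC1500 conditions were well apart (-0.69 ± 0.08, adjusted p = 6.8e-04), the ZR-75-30 change was smaller (0.25 ± 0.08, adjusted p = 0.014) and MDA-MB-175 overlapped (0.01 ± 0.07, adjusted p = 0.92).

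IRF1, a factor induced by interferon-γ and stress, was 116.8, 93.80, 100.2 and 99.70 at low and 191.8, 157.9, 181.9 and 175.6 at high glucose in MDA-MB-175. In ZR-75-30, IRF1 was 15.51, 15.92, 19.94 and 12.98 at low and 41.66, 33.75, 52.70 and 47.97 at high glucose. In HCC1500, IRF1 was 92.73, 90.21, 103.9 and 114.5 at low and 105.0, 115.9, 184.9 and 128.3 at high glucose. It rose without overlap in MDA-MB-175 (0.78 ± 0.08, adjusted p = 4.4e-06) and ZR-75-30 (1.39 ± 0.19, adjusted p = 5.9e-06) and did not pass the test in HCC1500 (0.38 ± 0.18, adjusted p = 0.18; 0.21 ± 0.09, adjusted p = 0.058 without HG3). Its exons share 2805 bases with an antisense gene, and strand use in counting is not stated. IRF7, which drives interferon-α genes, was 29.92, 30.14, 23.93 and 22.90 at low and 41.14, 54.68, 48.87 and 39.06 at high glucose in ZR-75-30 (0.76 ± 0.16, adjusted p = 7.3e-04). In MDA-MB-175, IRF7 was 32.91, 28.81, 30.18 and 30.52 at low and 43.27, 19.88, 28.50 and 22.61 at high glucose. In HCC1500, IRF7 was 8.74, 16.20, 8.44 and 10.33 at low and 13.57, 10.45, 19.31 and 10.62 at high glucose. Both of these lines overlapped between conditions (-0.16 ± 0.20, adjusted p = 0.62 and 0.28 ± 0.27, adjusted p = 0.51). IRF2, which can counter IRF1, was 163.4, 140.5, 146.4 and 127.5 at low and 209.9, 209.9, 195.9 and 217.3 at high glucose in ZR-75-30, without overlap (0.53 ± 0.08, adjusted p = 1.3e-05). In MDA-MB-175, IRF2 was 181.8, 180.9, 171.4 and 188.7 at low and 183.5, 184.6, 178.4 and 198.2 at high glucose. In HCC1500, IRF2 was 74.11, 67.34, 87.43 and 91.72 at low and 72.56, 80.59, 63.12 and 65.55 at high glucose. Neither passed the test (0.04 ± 0.06, adjusted p = 0.67 and -0.18 ± 0.14, adjusted p = 0.42).

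The OAS enzymes make 2′-5′ oligoadenylates that activate RNase L. OAS1, OAS2 and OAS3 lie side by side on chromosome 12 (chr12:113343661-113371024, chr12:113416200-113449528 and chr12:113375856-113414265), and they differed in how they changed. OAS1 was 201.0, 213.1, 201.0 and 199.4 at low and 355.7, 335.1, 323.2 and 364.3 at high glucose in MDA-MB-175. In ZR-75-30, OAS1 was 12.19, 11.37, 10.82 and 12.22 at low and 32.29, 25.65, 20.82 and 19.19 at high glucose. In HCC1500, OAS1 was 70.31, 78.45, 75.54 and 82.68 at low and 24.78, 29.85, 45.30 and 25.85 at high glucose. It rose in MDA-MB-175 (0.76 ± 0.06, adjusted p = 7.4e-08) and ZR-75-30 (0.98 ± 0.21, adjusted p = 7.4e-04) and fell in HCC1500 (-1.30 ± 0.19, adjusted p = 0.0022), with no overlap in any line. OAS2 was 167.7, 158.1, 168.5 and 187.7 at low and 112.3, 105.6, 103.8 and 108.3 at high glucose in MDA-MB-175. In ZR-75-30, OAS2 was 21.05, 15.92, 18.23 and 16.80 at low and 13.02, 16.88, 14.02 and 16.45 at high glucose. In HCC1500, OAS2 was 65.75, 53.04, 55.22 and 61.58 at low and 18.88, 14.92, 12.62 and 9.69 at high glucose. Unlike OAS1 it fell in MDA-MB-175 (-0.66 ± 0.07, adjusted p = 5.6e-06), and it fell in HCC1500 (-2.03 ± 0.20, adjusted p = 3.2e-04), where its fall was the largest among the members called. In ZR-75-30 it did not pass the test (-0.24 ± 0.20, adjusted p = 0.35).

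OAS3 was 630.5, 661.9, 635.0 and 639.5 at low and 212.4, 216.4, 127.0 and 233.6 at high glucose in HCC1500, where it fell (-1.73 ± 0.18, adjusted p = 3.8e-04; -1.54 ± 0.04, adjusted p = 3.7e-15 without HG3). In MDA-MB-175, OAS3 was 467.9, 499.2, 503.3 and 490.9 at low and 480.5, 512.9, 536.0 and 497.9 at high glucose. In ZR-75-30, OAS3 was 86.98, 86.44, 92.28 and 63.37 at low and 64.05, 77.63, 70.12 and 65.79 at high glucose. Both overlapped between conditions (0.05 ± 0.05, adjusted p = 0.53 and -0.23 ± 0.12, adjusted p = 0.13). OASL, a relative without enzyme activity, was 13.30, 13.98, 19.56 and 14.21 at low and 6.49, 7.46, 9.65 and 9.23 at high glucose in HCC1500, where it fell (-0.82 ± 0.20, adjusted p = 0.02). In MDA-MB-175, OASL was 36.92, 30.82, 37.58 and 25.94 at low and 43.68, 39.76, 40.21 and 37.33 at high glucose. In ZR-75-30, OASL was 0.55, 0.57, 0.00 and 0.00 at low and 0.52, 2.03, 2.12 and 0.00 at high glucose, and neither of these lines passed the test. EIF2AK2 (PKR), the kinase that halts translation on double-stranded RNA, was 402.1 to 465.4 at low and 472.6 to 522.6 at high glucose in MDA-MB-175 (0.22 ± 0.05, adjusted p = 0.0071). In ZR-75-30, EIF2AK2 was 244.5 to 265.9 at low and 267.3 to 295.0 at high glucose (0.14 ± 0.05, adjusted p = 0.036), so it rose in both without overlap.

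**Figure D2:**
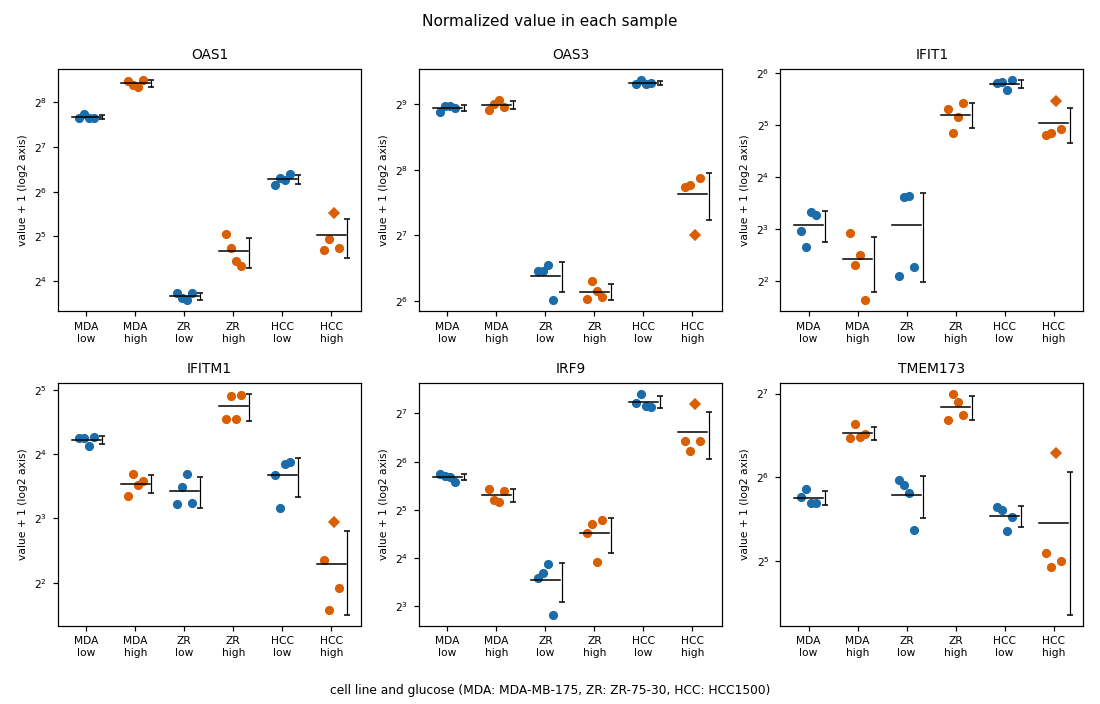
Normalized value + 1 (log2 axis) in each sample for OAS1, OAS3, IFIT1, IFITM1, IRF9 and TMEM173, by cell line and glucose (blue low, orange high). Bars are means of 4 replicates with SD to their right and the diamond is HG3; OAS1 at high glucose lies below low glucose in HCC1500 and above it in the other lines.

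The IFIT proteins bind viral RNA and block its translation, and their genes form a cluster on chromosome 10. All 4 rose in ZR-75-30, against 23.4% of all genes higher. IFIT1 and IFIT3 fell in HCC1500, against 13.0% of all genes lower, and all 4 fell there without HG3, against 37.7%. IFIT1 (chr10:91152303-91166244) was 3.32, 11.37, 11.39 and 3.82 at low and 38.54, 27.68, 34.85 and 41.81 at high glucose in ZR-75-30, the largest rise among members called in that line (2.27 ± 0.32, adjusted p = 9.9e-06). In HCC1500, IFIT1 was 55.11, 55.90, 49.85 and 57.27 at low and 27.14, 27.86, 43.07 and 29.54 at high glucose, without overlap (-0.78 ± 0.17, adjusted p = 0.012). In MDA-MB-175, IFIT1 was 6.82, 5.36, 9.11 and 8.65 at low and 6.66, 3.98, 4.68 and 2.10 at high glucose, and the conditions overlapped (-0.71 ± 0.30, adjusted p = 0.098). IFIT3 was low throughout: 3.88, 1.71, 2.28 and 0.76 at low and 6.25, 6.75, 10.62 and 7.54 at high glucose in ZR-75-30 (1.55 ± 0.35, adjusted p = 0.0011). In HCC1500, IFIT3 was 11.78, 9.85, 12.27 and 11.20 at low and 7.08, 6.47, 7.43 and 6.0 at high glucose (-0.66 ± 0.17, adjusted p = 0.022). In MDA-MB-175, IFIT3 was 3.21, 3.35, 4.56 and 4.58 at low and 4.58, 5.68, 5.86 and 3.68 at high glucose. IFIT2 and IFIT5 rose in ZR-75-30 by 0.86 ± 0.17 and 0.49 ± 0.14.

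The IFITM proteins hold virus back at membranes. IFITM1 was 18.06, 18.09, 16.51 and 18.31 at low and 9.15, 11.93, 10.54 and 11.04 at high glucose in MDA-MB-175. In ZR-75-30, IFITM1 was 8.31, 10.24, 11.96 and 8.40 at low and 22.39, 29.03, 22.52 and 29.47 at high glucose. In HCC1500, IFITM1 was 11.78, 7.94, 13.42 and 13.78 at low and 4.13, 1.99, 6.68 and 2.77 at high glucose. The conditions were apart in each line: it fell in MDA-MB-175 (-0.69 ± 0.18, adjusted p = 0.01), rose in ZR-75-30 (1.33 ± 0.21, adjusted p = 4.0e-05) and fell in HCC1500 (-1.44 ± 0.32, adjusted p = 0.014). IFITM3 was 14.96, 22.18, 26.20 and 22.14 at low and 54.16, 47.25, 45.90 and 40.44 at high glucose in ZR-75-30, where it rose (1.12 ± 0.18, adjusted p = 4.2e-05). In HCC1500, IFITM3 was 76.39, 77.18, 72.48 and 68.90 at low and 54.28, 53.23, 155.9 and 57.24 at high glucose. HG3 was the outlying value there, and the change was -0.05 ± 0.32, adjusted p = 0.94 with it and -0.42 ± 0.09, adjusted p = 9.5e-04 without it. In MDA-MB-175, IFITM3 was 463.5, 493.1, 509.6 and 385.1 at low and 438.5, 391.4, 415.8 and 414.8 at high glucose (-0.15 ± 0.07, adjusted p = 0.15). IFITM2 rose in ZR-75-30 (0.55 ± 0.10, adjusted p = 1.9e-04). The 3 genes are near-identical in parts, and counting could split their reads.

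In the ISG15 conjugation group, ISG15, the ubiquitin-like modifier, passed the test in no line, with means of 5.15 to 25.03 over the 6 groups. Its conjugating enzyme UBE2L6 was 42.94, 48.24, 47.83 and 31.03 at low and 87.78, 65.32, 61.68 and 60.46 at high glucose in MDA-MB-175. In ZR-75-30, UBE2L6 was 262.6, 228.0, 252.9 and 221.4 at low and 376.5, 404.4, 388.4 and 366.0 at high glucose. In HCC1500, UBE2L6 was 368.6, 396.7, 352.0 and 370.3 at low and 245.4, 241.3, 503.5 and 217.9 at high glucose. It rose in MDA-MB-175 (0.69 ± 0.15, adjusted p = 0.0034) and ZR-75-30 (0.67 ± 0.06, adjusted p = 4.6e-08), and in HCC1500 it was -0.39 ± 0.24, adjusted p = 0.3 with HG3 and -0.66 ± 0.05, adjusted p = 5.9e-09 without it. The ligases HERC5 and HERC6 lie next to each other on chromosome 4, and both rose in ZR-75-30. HERC5 was 17.73, 12.51, 15.95 and 16.80 at low and 49.47, 59.41, 56.10 and 59.62 at high glucose there (1.78 ± 0.16, adjusted p = 4.6e-08). In MDA-MB-175, HERC5 was 4.01, 4.69, 1.71 and 4.07 at low and 4.58, 3.41, 8.20 and 4.21 at high glucose. In HCC1500, HERC5 was 44.47, 33.03, 34.13 and 40.48 at low and 49.56, 42.78, 62.37 and 43.39 at high glucose. HERC5 overlapped between conditions in those lines and did not pass the test.

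HERC6 was 69.80, 83.60, 83.17 and 85.51 at low and 161.4, 178.2, 175.9 and 172.0 at high glucose in ZR-75-30 (1.09 ± 0.08, adjusted p = 5.2e-09). In MDA-MB-175, HERC6 was 187.8, 215.1, 177.1 and 186.7 at low and 160.6, 180.6, 176.1 and 181.4 at high glucose. In HCC1500, HERC6 was 50.55, 52.73, 39.11 and 53.40 at low and 44.84, 37.81, 45.30 and 41.08 at high glucose. Neither of those changes passed the test (-0.13 ± 0.07, adjusted p = 0.21 and -0.20 ± 0.14, adjusted p = 0.37). USP18, which removes ISG15 and damps receptor signaling, was called only in HCC1500 without HG3 (-0.35 ± 0.06, adjusted p = 3.2e-05).

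Among the GTPases, MX1, which blocks viral ribonucleoproteins, was 5.70 to 19.85 at low and 15.53 to 19.79 at high glucose in ZR-75-30, where it rose with overlap (0.77 ± 0.29, adjusted p = 0.037). In HCC1500, MX1 was 114.7 to 131.1 at low and 54.47 to 66.83 at high glucose and fell without overlap (-1.05 ± 0.11, adjusted p = 4.1e-04). GBP1 rose in ZR-75-30, at 16.80 to 28.43 at low and 37.69 to 47.93 at high glucose (0.91 ± 0.18, adjusted p = 4.6e-04). GBP2 was 407.2, 413.4, 437.5 and 431.4 at low and 635.9, 601.5, 657.4 and 623.7 at high glucose in ZR-75-30 (0.57 ± 0.04, adjusted p = 6.5e-09). In MDA-MB-175, GBP2 was 482.8, 486.4, 493.1 and 450.7 at low and 560.8, 584.5, 561.4 and 544.1 at high glucose (0.23 ± 0.05, adjusted p = 0.0014). In HCC1500, GBP2 was 74.11, 78.77, 90.50 and 75.79 at low and 72.56, 66.66, 101.0 and 62.78 at high glucose, where the change did not pass the test with all samples (-0.09 ± 0.16, adjusted p = 0.73) and was -0.24 ± 0.10, adjusted p = 0.043 without HG3. MX2 passed in no line.

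Among the other effectors, TRIM22, a ubiquitin ligase active against viruses, was 1.66, 2.27, 1.71 and 1.53 at low and 10.94, 8.78, 7.65 and 16.45 at high glucose in ZR-75-30, where it rose (2.05 ± 0.31, adjusted p = 2.1e-05). Its low glucose values there lay near the floor of 3 reads (1.66 to 2.29 in these samples), so few reads set the size of that rise. In MDA-MB-175, TRIM22 was 8.83, 11.39, 10.82 and 12.21 at low and 14.15, 12.50, 10.54 and 15.25 at high glucose. In HCC1500, TRIM22 was 6.84, 5.08, 4.99 and 5.17 at low and 2.36, 6.47, 2.97 and 6.46 at high glucose. TRIM21, an antibody-binding ligase, was 82.67 to 97.36 at low and 101.9 to 124.4 at high glucose in MDA-MB-175 (0.37 ± 0.09, adjusted p = 0.007). In ZR-75-30, TRIM21 was 33.59 to 43.77 at low and 85.42 to 91.81 at high glucose (1.16 ± 0.11, adjusted p = 1.2e-07), and it rose in both lines. SAMD9 was 6.82, 17.42, 11.39 and 13.23 at low and 22.05, 21.58, 20.69 and 18.93 at high glucose in MDA-MB-175 (0.79 ± 0.23, adjusted p = 0.02). In HCC1500, SAMD9 was 158.5, 145.8, 142.7 and 145.1 at low and 106.8, 119.4, 49.75 and 138.9 at high glucose (-0.60 ± 0.28, adjusted p = 0.17; -0.29 ± 0.08, adjusted p = 0.0055 without HG3). In ZR-75-30, SAMD9 was 2.77, 4.55, 4.56 and 4.58 at low and 5.21, 11.48, 11.47 and 3.43 at high glucose. ISG20, an exonuclease, rose in MDA-MB-175 (0.70 ± 0.10, adjusted p = 9.0e-05) and was the single member called lower in ZR-75-30 (-0.24 ± 0.09, adjusted p = 0.035).

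RSAD2 (viperin) and CMPK2 are neighbors that act on nucleotides and share 351 exon bases on opposite strands, and both were mainly expressed in MDA-MB-175. RSAD2 was 18.46, 8.71, 15.37 and 15.77 at low and 9.98, 8.52, 6.64 and 8.41 at high glucose there and fell with overlap (-0.70 ± 0.24, adjusted p = 0.045). In ZR-75-30, RSAD2 was 0.00, 0.00, 0.00 and 2.29 at low and 0.52, 1.35, 0.00 and 2.74 at high glucose. In HCC1500, RSAD2 was 0.00, 1.91, 1.53 and 2.15 at low and 1.18, 0.99, 0.74 and 0.00 at high glucose. No sample of those lines exceeded 2.74, and neither change passed the test. CMPK2 was 47.75, 36.85, 43.84 and 44.76 at low and 26.21, 27.83, 36.31 and 37.33 at high glucose in MDA-MB-175 and also fell with overlap (-0.44 ± 0.15, adjusted p = 0.04). In ZR-75-30, CMPK2 was 1.11, 1.71, 3.42 and 1.53 at low and 4.69, 3.38, 2.55 and 0.00 at high glucose. In HCC1500, CMPK2 was 1.90, 0.95, 2.3 and 2.15 at low and 1.18, 1.99, 0.00 and 0.46 at high glucose. CMPK2 too passed the test in neither of them. BST2 (tetherin), which holds budding virus at the cell surface, was 1938, 1613, 1820 and 1622 at low and 1745, 1530, 1499 and 1673 at high glucose in MDA-MB-175. In HCC1500, BST2 was 1691, 1837, 1714 and 1789 at low and 1128, 1084, 3085 and 1138 at high glucose. In ZR-75-30, BST2 was 7.20, 2.27, 4.56 and 3.82 at low and 6.25, 6.08, 4.25 and 5.48 at high glucose. No change of BST2 passed the test with all samples; without HG3 the HCC1500 change was -0.65 ± 0.03, adjusted p = 9.4e-12. SAMD9L was 103.6, 83.60, 101.4 and 81.69 at low and 92.18, 90.46, 84.57 and 102.1 at high glucose in ZR-75-30. In HCC1500, SAMD9L was 13.68, 18.42, 13.80 and 14.64 at low and 17.70, 17.41, 10.40 and 18.00 at high glucose. In MDA-MB-175, SAMD9L was 2.81, 3.35, 2.85 and 5.09 at low and 1.25, 2.27, 1.95 and 3.15 at high glucose. It was called in no line.

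PARP9, PARP14 and DTX3L, which act together in ADP-ribosylation, all fell in HCC1500 (-0.86 ± 0.15, -0.50 ± 0.14 and -0.59 ± 0.17, log2 ± SE). This compares with 13.0% of all genes lower. HG3 was the lowest high glucose sample for each of them. Without HG3 all 3 still fell, against 37.7% of all genes lower, and their median change was -0.45 in place of -0.59. In HCC1500, PARP9 was 62.89 to 70.17 at low and 27.47 to 43.07 at high glucose. PARP14 and DTX3L rose in MDA-MB-175 (0.54 ± 0.08, adjusted p = 1.1e-04 and 0.18 ± 0.06, adjusted p = 0.028) and ZR-75-30 (0.28 ± 0.05, adjusted p = 2.1e-04 and 0.65 ± 0.07, adjusted p = 9.1e-07). DTX3L and PARP9 lie head to head and share 139 exon bases on opposite strands.

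Of the IFI genes and EPSTI1, IFI44 was 3.21, 2.01, 2.28 and 2.03 at low and 0.00, 0.57, 1.17 and 0.53 at high glucose in MDA-MB-175 (-1.15 ± 0.36, adjusted p = 0.027). In ZR-75-30, IFI44 was 2.22, 1.71, 1.14 and 2.29 at low and 8.85, 6.75, 4.67 and 2.74 at high glucose (1.18 ± 0.36, adjusted p = 0.011). In HCC1500, IFI44 was 7.60, 12.71, 12.27 and 12.92 at low and 2.36, 5.47, 9.65 and 1.85 at high glucose (-1.26 ± 0.42, adjusted p = 0.066; -1.62 ± 0.31, adjusted p = 2.1e-04 without HG3). In MDA-MB-175 no sample exceeded 3.21, so few reads carry that change. IFI44L was 7.22, 9.85, 8.82 and 12.92 at low and 4.13, 3.98, 2.97 and 2.77 at high glucose in HCC1500, where it fell (-1.25 ± 0.23, adjusted p = 0.006). In MDA-MB-175, IFI44L was 0.00, 1.34, 0.00 and 1.53 at low and 0.42, 0.00, 0.39 and 0.00 at high glucose. In ZR-75-30 it was listed at 0 in all 8 samples. IFI6, an inhibitor of apoptosis, was 40.53, 43.55, 27.33 and 40.69 at low and 30.37, 23.86, 19.52 and 17.88 at high glucose in MDA-MB-175 (-0.71 ± 0.19, adjusted p = 0.01). In HCC1500, IFI6 was 101.1, 103.2, 114.3 and 103.8 at low and 69.61, 77.61, 234.6 and 80.78 at high glucose (-0.07 ± 0.35, adjusted p = 0.92; -0.47 ± 0.08, adjusted p = 1.0e-04 without HG3). In ZR-75-30, IFI6 was 2.22, 3.41, 4.56 and 7.63 at low and 5.21, 8.78, 8.07 and 3.43 at high glucose. IFI35 was 14.96, 18.20, 18.80 and 12.22 at low and 25.52, 21.60, 26.77 and 20.56 at high glucose in ZR-75-30 (0.54 ± 0.20, adjusted p = 0.033). In HCC1500, IFI35 was 123.5, 131.8, 113.9 and 125.7 at low and 89.08, 77.11, 226.5 and 76.62 at high glucose (-0.24 ± 0.32, adjusted p = 0.66; -0.61 ± 0.08, adjusted p = 4.5e-06 without HG3). In MDA-MB-175, IFI35 was 0.00, 0.00, 0.00 and 0.00 at low and 0.00, 0.00, 0.00 and 0.53 at high glucose. EPSTI1 was 8.43, 4.69, 10.82 and 8.14 at low and 3.74, 6.82, 7.03 and 6.83 at high glucose in MDA-MB-175. In ZR-75-30, EPSTI1 was 12.74, 6.26, 8.54 and 12.22 at low and 5.73, 7.43, 8.07 and 3.43 at high glucose. In HCC1500, EPSTI1 was 0.00, 0.00, 0.00 and 0.43 at low and 0.00, 0.00, 0.00 and 0.46 at high glucose. EPSTI1 was called in no line where it was tested.

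HG3 lay apart from the other HCC1500 high glucose samples for most members, and the direction went with transcript length. Of 39 members with a mean of at least 5 in HCC1500 high glucose, HG3 was above the other 3 samples for 26, below them for 10 and within them for 3. ISG15 (canonical transcript of 637 bases), IFI6 (812 bases) and BST2 (1001 bases) were above, and OAS3 (6599 bases), SAMD9 (6806 bases) and EIF2AK2 (9975 bases) were below. These places and the length pattern were not counted over all genes, so neither can be called particular to the members. HG3 stood apart over all genes too: of those with a mean of at least 10, 23.91% lay more than 1 on the log2 scale from the rest of its group. Every other sample had at most 1.74%. The deposited total of HG3 was 7319781, against 5559394 to 5604083 in the other 3 samples. What set HG3 apart was not tested. For OAS3, HG3 was at 127.0, against 212.4, 216.4 and 233.6 in the other samples.

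**Figure D3:**
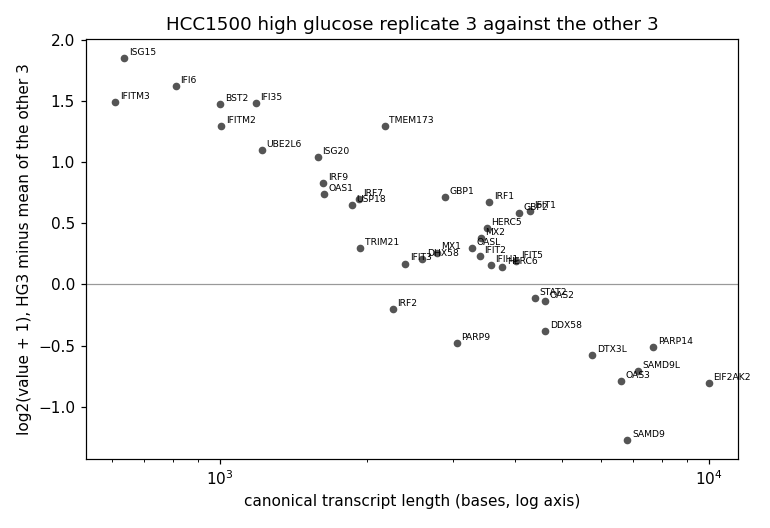
Difference in log2(value + 1) between HG3 and the mean of the other 3 HCC1500 high glucose samples against canonical transcript length (bases, log axis), 1 point for each of 39 members. The shortest members lie above 0, and every member from DTX3L (5768 bases) upward lies below it.

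The lines differed in the levels of these genes before glucose was raised. At low glucose, 26 of 48 members differed between MDA-MB-175 and ZR-75-30 by at least 1 on the log2 scale and passed the test, against 33.1% of all genes. Of these 19 were higher in MDA-MB-175 and 7 lower, against 22.9% and 10.2% of all genes. Between MDA-MB-175 and HCC1500, 31 members differed, against 42.7% of all genes, and 16 were higher in MDA-MB-175 and 15 lower, against 20.6% and 22.1%. Between ZR-75-30 and HCC1500, 30 members differed, against 45.1% of all genes, and 7 were higher in ZR-75-30 and 23 lower, against 16.3% and 28.8%. Rescaling each sample to the same total moved the median difference of all genes in this pair from -0.25 to -0.46, and 4 members were then higher and 22 lower. At high glucose without HG3 this last pair had 18 higher and 12 lower, against 20.2% and 25.6%. The counts at low and high glucose are over the members called in each condition, which need not be the same. These 3 pairs share samples.

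BST2 had the largest fitted log2 difference of the members, at 1748 ± 158.5 in MDA-MB-175 and 1758 ± 67.39 in HCC1500 against 4.46 ± 2.06 in ZR-75-30 (mean ± SD, n = 4). MDA-MB-175 and ZR-75-30 differed in BST2 by 8.40 ± 0.19, adjusted p = 1.0e-14, and MDA-MB-175 and HCC1500 did not differ beyond their spread (-0.01 ± 0.19, adjusted p = 0.96). IFITM3 was also high in MDA-MB-175, where its low glucose values ran from 385.1 to 509.6, against 14.96 to 26.20 in ZR-75-30 (4.39 ± 0.14, adjusted p = 3.9e-13). OASL had 255 reads over 4 samples of MDA-MB-175 and 2 reads over those of ZR-75-30, a ratio of 110 with an exact 95% counting interval of 30 to 910. IFI35 had no read in the MDA-MB-175 low glucose samples: with a floor of 3 reads per library it was at least 76.8-fold higher in HCC1500 and at least 9.95-fold higher in ZR-75-30. Interval and floor cover counting error only.

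SAMD9 and its neighbor SAMD9L on chromosome 7 were highest in different lines. SAMD9 was higher in HCC1500 than in MDA-MB-175 (-3.56 ± 0.22, adjusted p = 1.1e-09, MDA-MB-175 minus HCC1500) and ZR-75-30 (-4.88 ± 0.22, adjusted p = 2.2e-11, ZR-75-30 minus HCC1500), whereas SAMD9L was higher in ZR-75-30 than in HCC1500 (2.54 ± 0.18, adjusted p = 3.7e-09) and MDA-MB-175 (-4.39 ± 0.18, adjusted p = 9.1e-12, MDA-MB-175 minus ZR-75-30). UBE2L6 was lower in MDA-MB-175 than in ZR-75-30 (-2.49 ± 0.11, adjusted p = 3.2e-11), and HERC5 lower than in HCC1500 (-3.12 ± 0.23, adjusted p = 5.5e-09). GBP2 was higher in ZR-75-30 than in HCC1500 (2.39 ± 0.06, adjusted p = 1.8e-14), and IFI6 lower (-4.38 ± 0.24, adjusted p = 2.0e-10). RSAD2 and CMPK2 were higher in MDA-MB-175 than in HCC1500 (2.78 ± 0.44, adjusted p = 3.1e-05 and 3.99 ± 0.25, adjusted p = 8.7e-10). EPSTI1 had 63 reads in MDA-MB-175 and 65 in ZR-75-30 against 1 in HCC1500, ratios of 87.5 (15.2 to 3512) and 105 (18.2 to 4211). DDX58 did not pass the test between MDA-MB-175 and ZR-75-30 (-0.11 ± 0.08, adjusted p = 0.27) and was higher in HCC1500 (-2.48 ± 0.08, adjusted p = 5.2e-13, MDA-MB-175 minus HCC1500). Where a line has so few reads, the fitted log2 difference depends on the pseudocount and is no bound.

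**Figure D4:**
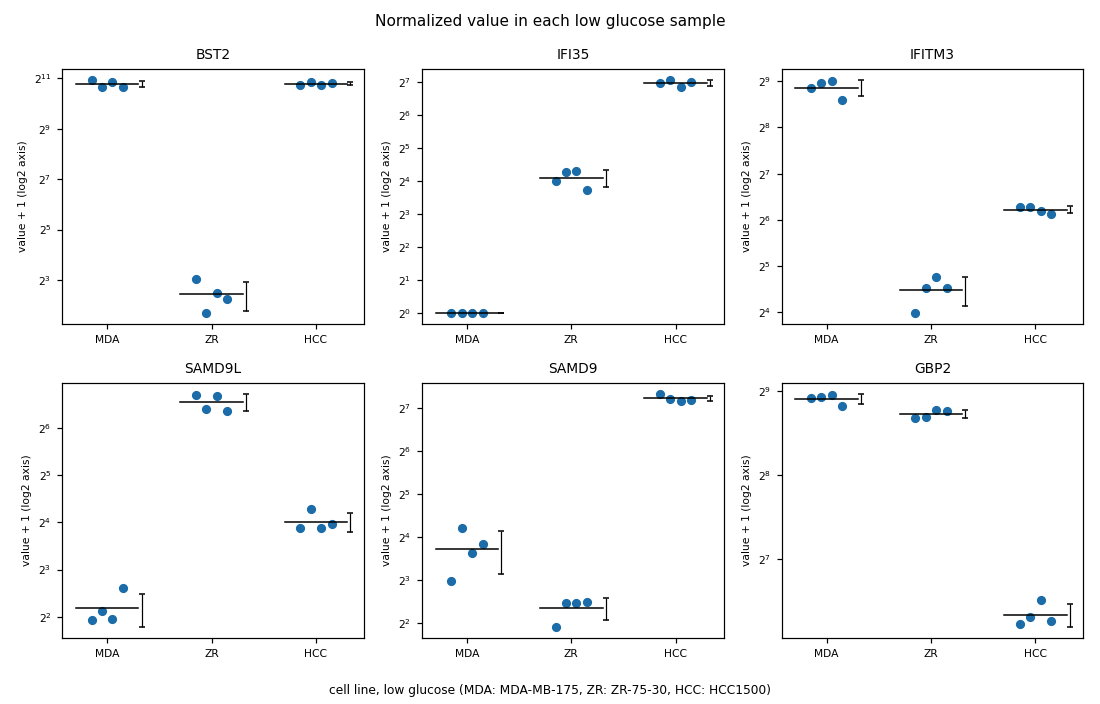
Normalized value + 1 (log2 axis) in each low glucose sample of the 3 lines for BST2, IFI35, IFITM3, SAMD9L, SAMD9 and GBP2, with means of 4 replicates and SD. The BST2 mean is 1748 in MDA-MB-175, 1758 in HCC1500 and 4.46 in ZR-75-30.

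Per kilobase of canonical transcript at low glucose, BST2 led in MDA-MB-175 (1747) and HCC1500 (1756), followed by IFITM3 in MDA-MB-175 (757.5) and UBE2L6 in HCC1500 (305.1). In ZR-75-30, UBE2L6 led (197.9), followed by GBP2 (103.3).

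The rest of the interferon pathway was described by 5 lists. Interferon ligands had 1 row among 24 symbols, IFNE, which was tested in no line. Of 12 rows for receptors and kinases, 1 rose and 2 fell in HCC1500 (1 and 8 without HG3), and 3 rose and 1 fell in each other line. The shares of all genes called, against which this and the next lists are read, were 20.5% in HCC1500 (58.5% without HG3), 46.0% in ZR-75-30 and 25.7% in MDA-MB-175, and 4 of 12 is 33.3%. Of 14 rows for sensing and relay, 1 rose and 1 fell in HCC1500 (3 and 4 without HG3), 4 rose and 2 fell in ZR-75-30 and 4 rose in MDA-MB-175. As shares of the rows tested these are 16.7% (58.3% without HG3), 50% and 28.6%, near those of all genes. TLR3, the endosomal receptor for double-stranded RNA, rose in ZR-75-30 (1.49 ± 0.22) and MDA-MB-175 (1.01 ± 0.35). Of 12 negative regulators and nucleic acid control genes, 2 rose and 4 fell in each of MDA-MB-175 and ZR-75-30, and none passed limma's test in HCC1500 (1 rose and 5 fell without HG3). The 6 called are 50% of those tested, against the 46.0% of all genes in ZR-75-30 and 25.7% in MDA-MB-175. NLRC5, the activator of MHC class I genes, rose in ZR-75-30 from 41.51 to 51.52 at low to 150.0 to 176.9 at high glucose (1.85 ± 0.10).

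Of 43 rows for other interferon-inducible genes, 1 rose and 12 fell in HCC1500 (3 and 23 without HG3), 19 rose and 5 fell in ZR-75-30, and 14 rose and 3 fell in MDA-MB-175. These are 33.3% (66.7%), 66.7% and 42.5% of the rows tested. RNF31 has 2 of the rows, and 1 of its gene models shares 1544 exon bases with the member IRF9. HELZ2 rose in ZR-75-30 (2.05 ± 0.25) and fell in HCC1500 (-0.71 ± 0.10). DDX60, a helicase cofactor of RIG-I, fell in MDA-MB-175 (-0.41 ± 0.12), rose in ZR-75-30 (0.75 ± 0.10) and fell in HCC1500 (-1.34 ± 0.22). APOBEC3B, a DNA cytidine deaminase, was at 134.4 to 154.9 at low and 36.58 to 65.34 at high glucose in HCC1500 (-1.63 ± 0.18), and in MDA-MB-175 it was 0.00 ± 0.07. IFI30, a lysosomal thiol reductase, rose in ZR-75-30 (2.84 ± 0.31) and HCC1500 (1.17 ± 0.31). Its exons share 997 bases with another gene model on the same strand, so its reads may be split.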

How the data were processed

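RNA was sequenced from 24 samples, and groups came from the sample titles. The authors deposited 1 table of normalized read counts. The submitters' processing notes name edgeR and hg38, and the study's methods describe trimming, TopHat alignment to hg19 with Ensembl gene models, and DESeq2 and edgeR. Which build and strand setting made this table is not given in the sources used here. The deposited values are a signal in units of normalized reads: every value was a whole number of reads (within 0.02 of a read) times 1 factor per sample, and 1 read was worth 0.3176 to 0.7635. Totals ran from 5559394 to 7594840, so values are not CPM. Counting depth limits low genes, and intervals cover counting error only.

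From these values, genes at 0.5 or more in at least 4 fitted samples were tested with limma 3.58.1 (R 4.3.3) on log2(value + 1) with a mean-variance trend, two-sided, with Benjamini-Hochberg adjustment over all genes and a threshold of 0.05. Glucose was compared in the 8 samples of each line. Lines were compared in the 12 low glucose samples, where a log2 difference of at least 1 was also required, and differences in glucose response with an F test on 24 samples. Alternatives were other pseudocounts, filters and scalings, samples left out, the replicate number as a block, and edgeR 4.0.16 and DESeq2 1.42.0 on recovered reads. The fits were tested on simulated data, where set changes were missed mainly in genes with few reads, most often by DESeq2 and the F test. Members with few reads are read with that limit. Coordinates are GRCh37 (GENCODE v44lift37), and the canonical transcript gave lengths.

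Values in every sample are given for the 4 sensors, the 5 STAT and IRF factors, the 6 members with the largest called change in each line, the 3 with the largest difference in each direction for each pair of lines, and the 3 with the smallest F test p. Other members are given by range or count. The members and gene lists were chosen with earlier results of these data known. No set test was run.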

Additional observations from a re-analysis of the deposited data

Results flagged for a closer look

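Only the 32 members with values given in every sample were searched, not the rest. Their 156 groups of 4 samples with a mean of at least 5 were searched for a sample far from the other 3, and 17 were found. Chance gives about 1 in 20. HCC1500 high glucose replicate 3 was that sample in 9 of them: TMEM173 (77.23), IRF9 (144.8), UBE2L6 (503.5), IFIT1 (43.07), IFITM3 (155.9), BST2 (3085), IFI6 (234.6) and IFI35 (226.5) were high in it, and SAMD9L (10.40) was low.

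The other 8 were spread over 6 samples. In MDA-MB-175, low glucose replicate 3 was high for DHX58 (55.80) and low for IFITM1 (16.51), low glucose replicate 2 was high for OAS1 (213.1) and high glucose replicate 1 was low for EPSTI1 (3.74). In ZR-75-30, low glucose replicate 1 was low for HERC6 (69.80). In HCC1500, low glucose replicate 3 was high for OASL (19.56), and low glucose replicate 1 was high for TRIM22 (6.84) and low for IFI44 (7.60).

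The response to glucose differed between lines for OAS1 (adjusted p = 5.3e-08), HERC6 (adjusted p = 2.4e-07) and OAS3 (adjusted p = 4.7e-07) by the limma F test. OAS1 fell in HCC1500 and rose in the other lines, HERC6 rose in ZR-75-30, and OAS3 fell in HCC1500.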

How the results depend on the processing

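In the comparison of glucose levels, 17 members were called in HCC1500, 30 in ZR-75-30 and 19 in MDA-MB-175. Leaving out 1 sample in turn gave 10 to 31, 26 to 30 and 12 to 19 members. In MDA-MB-175 the count was 12 without low glucose replicate 1 and 12 without high glucose replicate 2. In HCC1500 it was 10 without low glucose replicate 3, 11 without low glucose replicate 4 and 31 without high glucose replicate 3 (HG3). Combining the removal of HG3 with other settings, chosen after seeing the data, gave 31 after rescaling to CPM, 30 with median-of-ratios factors, 30 with edgeR and 28 with DESeq2. A log2 change of at least 1 left 7 members in HCC1500, 11 in ZR-75-30 and 1 in MDA-MB-175, since fewer changes reach that size. A fit on all 24 samples gave 11 in MDA-MB-175. DESeq2 called 11 higher and 3 lower in MDA-MB-175 and 2 higher and 15 lower in HCC1500. Between lines, leaving out 1 sample gave 24 to 26 members for MDA-MB-175 and ZR-75-30, 30 to 31 for MDA-MB-175 and HCC1500, 30 to 32 for ZR-75-30 and HCC1500, and 29 to 39 for the F test. Except where an alternative's own construction shows it, the cause was not tested.

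Samples with the same replicate number did not deviate together (r from -0.04 to 0.11). Whether they share a culture, day or batch is not stated, and this check cannot settle it. With the replicate number as a block, 10 members were called in HCC1500, 30 in ZR-75-30 and 20 in MDA-MB-175.

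Over all genes, 4368 were called in MDA-MB-175 and 2011 in the fit on 24 samples. In HCC1500, 3350 were called, 9504 without HG3, 2015 to 2104 without 1 low glucose sample, 1964 with the replicate block and 5842 in the fit on 24 samples. The F test called 5316 genes and 8809 without HG3. A log2 change of at least 1 left 910 genes in HCC1500, 1040 in ZR-75-30 and 381 in MDA-MB-175. Without the minimum size, the pairs of lines had 12975, 14295 and 14265 genes in place of 5878, 7577 and 8005.

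For some members the fitted difference between lines had another sign at high than at low glucose. High glucose differences are given with all samples and then without HG3. Only the sign was compared, and not every difference passed the test. Several were small, down to 0.09 for OAS2. At low glucose the IFIT1 and IFI44 values of MDA-MB-175 and ZR-75-30 overlapped, so a gap opened there and none was reversed. MDA-MB-175 minus ZR-75-30 was -2.83 and -2.83 for IFIT1, -1.20 and -1.20 for IFITM1, and -2.07 and -2.07 for IFI44. MDA-MB-175 minus HCC1500 was 1.39 and 1.20 for OAS3. ZR-75-30 minus HCC1500 was 0.19 and 0.30 for HERC5, 0.13 and 0.09 for OAS2, 0.17 and 0.32 for IFIT1, 0.16 and 0.20 for IFIT3, 2.54 and 2.78 for IFITM1, 1.14 and 1.01 for TRIM22, and 0.32 and 0.68 for IFI44.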
